A study of Mus musculus with 8 samples.

Results

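The 10 immediate early genes described here were Fos, Fosb, Junb, Egr1, Egr2, Arc, Npas4, Nr4a1, Dusp1 and Ier2, taken by name and found among the 18194 genes of a hypothalamus array data set. The hypothalamus was taken at 10 weeks from untreated mice in a Swiss Webster background, 4 of them wild type and 4 Nestin-Pex5-/-, and each mouse had its own whole-genome Affymetrix array. The knockouts were made by crossing Nestin-Cre with Pex5-loxP mice, which removes the import receptor for peroxisomal matrix proteins from neurons, astrocytes and oligodendrocytes, whereas microglia and vessels keep it. Wild type replicates are numbered 1 to 4 and Nestin-Pex5-/- replicates 7 to 10, as labelled. Values are log2 intensities, so a difference of 1 is a 2-fold change, and where a gene has several probe sets the one with the highest mean stands for it. Of these genes, 9 have 1 probe set paired with them alone and Egr2 has 2, which makes 11 probe sets in all.

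Immediate early genes are transcribed within minutes of a stimulus, from factors already present in the cell. In neurons, calcium entry through synaptic receptors and channels activates kinases that act on CREB, bound to the cAMP response element (CRE), and on SRF with its partners, bound to the CArG box. Most of the products are transcription factors, some act at the synapse or switch the signal off again, and the RNAs decay fast, so that their level in brain tissue follows what the animal experienced shortly before death.

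With all 8 arrays no immediate early gene differed between the genotypes beyond the threshold, an adjusted p below 0.05 in limma. Of all genes tested 0.791% were called lower. All 10 estimates were below 0, and the median log2 fold change of all genes was itself at -0.033. Leaving out wild type replicate 4, 7 of the 10 were lower in Nestin-Pex5-/- mice: Npas4, Nr4a1, Arc, Egr1, Dusp1, Fosb and Junb. Their levels were then between 0.250 and 0.768 times those of wild type, against 331 lower genes or 1.82% of all genes tested. That array was the lowest of the wild type arrays for 9 of the 10 genes, and for 19.4% of all genes. It was set aside with these values known, so the calls on 7 arrays describe those arrays and are no independent evidence of a difference between the genotypes.

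The sequences before the start sites of Npas4, Nr4a1, Dusp1 and Fosb are shown as examples from the genes that were lower on 7 arrays, since the factors named above act through such sequences. They are the 250 bases before 1 RefSeq start of each gene, on its strand (GRCm38.p6). For Npas4, Nr4a1 and Fosb the annotated gene also reaches upstream of the start used. Capitals mark TGACG, the core of the CRE, or CGTCA, the same letters on the opposite strand.
Npas4, chr19:4989972-4990221, minus strand: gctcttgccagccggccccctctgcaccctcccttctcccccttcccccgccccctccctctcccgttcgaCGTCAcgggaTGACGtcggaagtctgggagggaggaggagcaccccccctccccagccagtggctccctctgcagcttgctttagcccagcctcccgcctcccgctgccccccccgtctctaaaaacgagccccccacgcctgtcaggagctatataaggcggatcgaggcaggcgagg
Nr4a1, chr15:101266596-101266845, plus strand: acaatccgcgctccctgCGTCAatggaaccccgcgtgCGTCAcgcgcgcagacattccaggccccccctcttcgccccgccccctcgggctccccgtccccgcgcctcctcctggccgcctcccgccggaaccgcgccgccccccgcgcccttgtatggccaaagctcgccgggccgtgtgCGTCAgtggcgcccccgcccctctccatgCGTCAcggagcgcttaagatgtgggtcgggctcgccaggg
Dusp1, chr17:26508473-26508722, minus strand: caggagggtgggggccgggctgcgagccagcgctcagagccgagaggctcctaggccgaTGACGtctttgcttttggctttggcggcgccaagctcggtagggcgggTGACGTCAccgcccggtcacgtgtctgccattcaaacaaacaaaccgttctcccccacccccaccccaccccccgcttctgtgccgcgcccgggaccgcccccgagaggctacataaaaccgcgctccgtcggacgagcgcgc
Fosb, chr7:19310046-19310295, minus strand: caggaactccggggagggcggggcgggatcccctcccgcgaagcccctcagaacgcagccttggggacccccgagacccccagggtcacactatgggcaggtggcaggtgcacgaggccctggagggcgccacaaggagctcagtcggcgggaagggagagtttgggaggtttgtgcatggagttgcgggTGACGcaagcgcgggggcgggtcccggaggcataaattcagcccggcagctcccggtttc

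RefSeq promoters were at hand for 7 of the 10 genes and not for Arc, Egr1 and Ier2. TGACG, searched on both strands, was found before at least 1 start of all 7 of these genes and of 19.8% of 27025 genes, in windows of the same length. Counted by promoter, it was in 9 of their 11 promoters, with 3 of the 5 promoters of Egr2, and in 17.8% of 32851 promoters. The 3 windows of Egr2 overlap and hold the same copies, so they are not separate finds. The full element TGACGTCA, which holds the core on both strands, was found in Dusp1 alone of the 7, from base -143 to -136 before its start, and before 1.77% of all genes. Within the 250 bases searched, the CArG box was found in Egr2 alone of the 7, and before 1.62% of all genes. In Egr2 it was in 4 of the 5 promoters. Of these 4, the 3 overlapping windows share 1 site. In Npas4 the core lies from base -169 to -165, and on the opposite strand from -179 to -175. Fosb has it from -60 to -56, and Nr4a1 has 4 copies, all on the opposite strand. These matches describe the letters and say nothing about binding in these animals. Bases farther upstream were not searched, so a gene without a match here may have one there.

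Fos, Fosb and Junb encode subunits of AP-1, a dimeric transcription factor. Fos was at 11.45, 11.28, 10.62 and 10.35 in wild type replicates 1 to 4, and at 11.04, 10.49, 10.50 and 10.55 in Nestin-Pex5-/- replicates 7 to 10. The groups overlapped, with replicates 3 and 4 in the range of the knockouts or below it. The log2 difference was -0.28 ± 0.24 (SE), with a 95% interval of -0.82 to 0.25 and an adjusted p of 0.599. Fosb was at 5.73, 5.51, 5.55 and 5.05 in wild type and at 5.24, 4.80, 4.48 and 4.91 in Nestin-Pex5-/- mice. Of the wild type arrays only replicate 4 lay below the highest knockout. The level of Fosb in Nestin-Pex5-/- mice was 0.658 times that of wild type (adjusted p = 0.103), or 0.598 times without replicate 4 (adjusted p = 0.0226). Fosb, Egr2 and Npas4 are dim, with means below 7.28, the median level of the probe sets annotated to 1 gene. Background in such probe sets is unknown.

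Junb was at 7.86, 7.78, 7.78 and 6.75 in wild type and at 7.55, 7.40, 7.51 and 7.23 in Nestin-Pex5-/- mice. The lowest of all 8 arrays was wild type replicate 4. The estimate over all arrays was -0.12 ± 0.22, with an interval from -0.62 to 0.38. Without replicate 4 the wild type mean was 7.81 ± 0.042 (SD, n = 3) and the knockout mean 7.43 ± 0.14 (SD, n = 4), a 0.768-fold level with an adjusted p of 0.0229. Fos did not pass in either fit, at 0.720-fold with an adjusted p of 0.235 on 7 arrays.

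**Figure D1:**
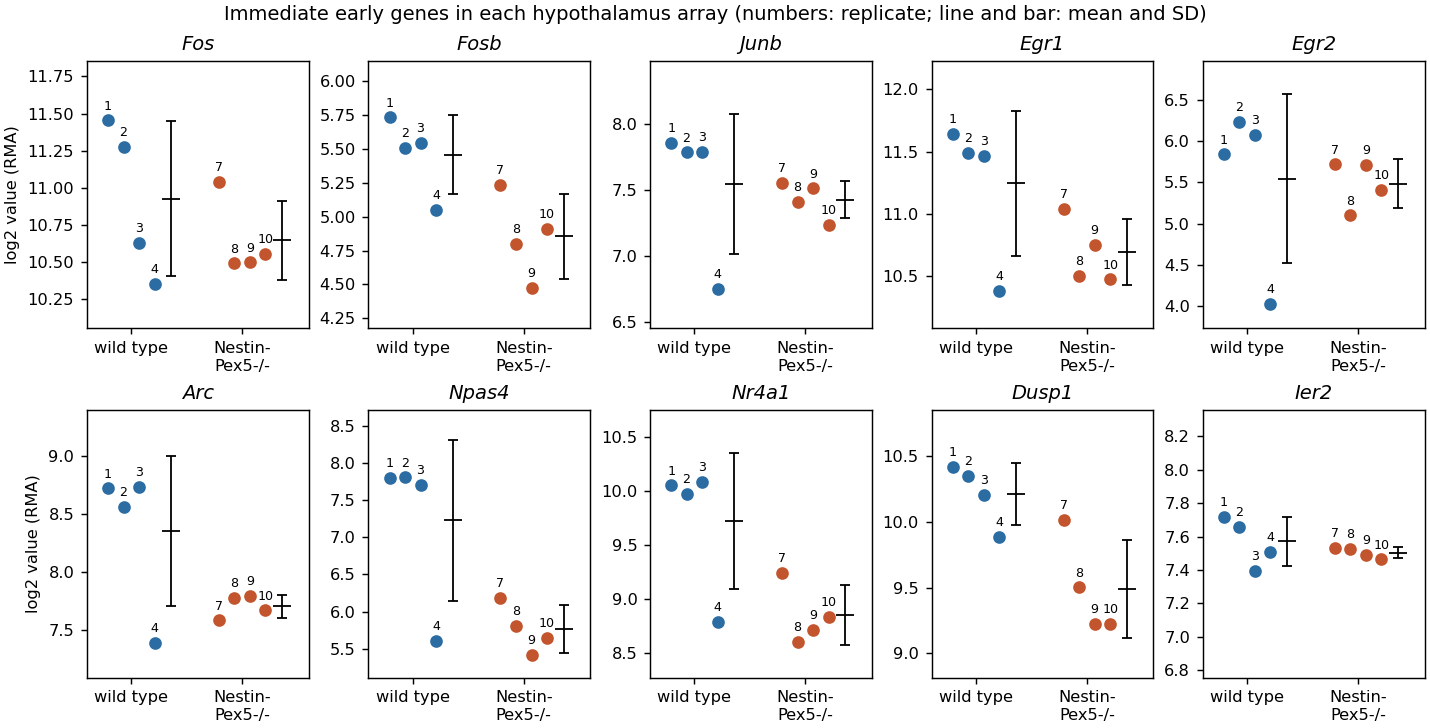
Log2 value (vertical axis, a different range in each panel) of the 10 immediate early genes in each array, wild type in blue and Nestin-Pex5-/- in orange. Digits give the replicate, and the black line with its bar gives mean and SD of 4 arrays. The lowest wild type point is replicate 4 for 9 genes, all but Ier2.

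Egr1 and Egr2 encode zinc finger factors, Egr1 being the one commonly used as a marker of neuronal activity. Egr1 was at 11.65, 11.49, 11.47 and 10.38 in wild type and at 11.04, 10.51, 10.75 and 10.48 in Nestin-Pex5-/- mice. Again wild type replicate 4 was below all knockouts and replicates 1 to 3 above them. The fold change was 0.682 (adjusted p = 0.319) with all arrays and 0.559 (adjusted p = 0.00559) without replicate 4.

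Egr2, known also for its part in Schwann cell myelination, was at 5.84, 6.24, 6.08 and 4.03 in wild type and at 5.72, 5.10, 5.71 and 5.41 in Nestin-Pex5-/- mice. Replicate 4 lay over 1 log2 unit below every other array, and the other wild type arrays were above all knockouts. The estimate over 8 arrays was -0.06 ± 0.43 with an interval from -1.02 to 0.90. On 7 arrays the level was 0.675-fold, with an adjusted p of 0.0698. The other probe set of Egr2 was at 5.66, 5.91, 6.19 and 3.76 in wild type and 5.67, 5.01, 5.50 and 5.36 in Nestin-Pex5-/- mice. Replicate 4 was again the lowest array there, but wild type replicate 1 and Nestin-Pex5-/- replicate 7 were level, and the fold change over 8 arrays was 1.004. Both probe sets of Egr2 are dim by the limit of 7.28 given above.

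Npas4 encodes a bHLH-PAS factor that is largely restricted to neurons and is induced by calcium entry. It was at 7.79, 7.80, 7.71 and 5.61 in wild type and at 6.19, 5.81, 5.41 and 5.65 in Nestin-Pex5-/- mice. The values of replicates 1 to 3 lay within 0.1 of each other, and replicate 4 was among the knockouts. The level in Nestin-Pex5-/- mice was 0.363 times that of wild type over all arrays, with a log2 difference of -1.46 ± 0.45 and an adjusted p of 0.124. Without replicate 4 it was 0.250 times, with an adjusted p of 9.1e-05. The estimate of Npas4 was the sixth lowest of all 18194 genes with 8 arrays and the fourth lowest with 7. Its probe set is dim by the limit of 7.28 given above, so background in these values is unknown.

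Arc, a protein of the postsynapse that drives removal of AMPA receptors, was at 8.72, 8.57, 8.73 and 7.39 in wild type and at 7.58, 7.78, 7.79 and 7.67 in Nestin-Pex5-/- mice. Within each genotype the arrays were close, with the exception of wild type replicate 4, which was lower than every knockout. The 4 Nestin-Pex5-/- values had an SD of 0.099 and the 3 other wild type values one of 0.094. The fold change was 0.639 (adjusted p = 0.256) over all arrays and 0.512 (adjusted p = 7.7e-05) without that array.

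Nr4a1 encodes an orphan nuclear receptor. It was at 10.05, 9.97, 10.08 and 8.78 in wild type and at 9.24, 8.60, 8.71 and 8.83 in Nestin-Pex5-/- mice, so that replicate 4 lay inside the range of the knockouts and the others well above it. The level was 0.545-fold with all arrays (adjusted p = 0.134) and 0.439-fold on 7 arrays (adjusted p = 9.2e-04). Dusp1, a phosphatase that inactivates MAP kinases and so ends the signal, was at 10.42, 10.35, 10.21 and 9.89 in wild type and at 10.01, 9.50, 9.22 and 9.22 in Nestin-Pex5-/- mice. Of the 10 genes it came nearest to the threshold over all arrays, with a 0.605-fold level and an adjusted p of 0.0563, and was 0.561-fold (adjusted p = 0.0248) on 7 arrays. Here the highest knockout, replicate 7, overlapped with wild type replicate 4.

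Ier2, a nuclear protein of the early growth response, stood apart from the rest. It was at 7.72, 7.66, 7.39 and 7.51 in wild type and at 7.53, 7.53, 7.49 and 7.46 in Nestin-Pex5-/- mice, with the knockouts inside the wild type range. The log2 difference was -0.07 ± 0.076, with an interval from -0.24 to 0.10, and -0.27 to 0.096 on 7 arrays. Its wild type replicate 4 was 0.946 times the average of replicates 1 to 3.

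Set against all genes, none of the 10 was called with 8 arrays where 0.791% of genes were called lower (144) and 3.98% higher (724). At an unadjusted p below 0.05 in limma, 5 of the 10 passed (Fosb, Arc, Npas4, Nr4a1 and Dusp1), as did 16.9% of all genes. The two-sided exact permutation test over 70 assignments gave its lowest p, 0.0571, for Fosb and Dusp1. No immediate early gene had all knockout values below all wild type values, which 4.51% of genes had. The median of the 10 log2 fold changes was -0.58, and that of all genes -0.033.

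Without wild type replicate 4, 7 were called lower and none higher, with 1.82% of all genes lower and 5.94% higher. The knockouts were then below all wild type values for 8 of the 10, all but Fos and Ier2, where 8.67% of genes behaved so. The median log2 fold change was -0.79, and that of all genes -0.016. For these 8 genes the exact permutation test gave p = 0.0571, the smallest that 35 assignments allow, so that 7 arrays could not pass 0.05 by this test. Arc, Egr1, Npas4 and Nr4a1 were called whichever further array was left out, whereas Dusp1, Fosb and Junb were lost in some of these fits, which left between 4 and 7 genes.

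**Figure D2:**
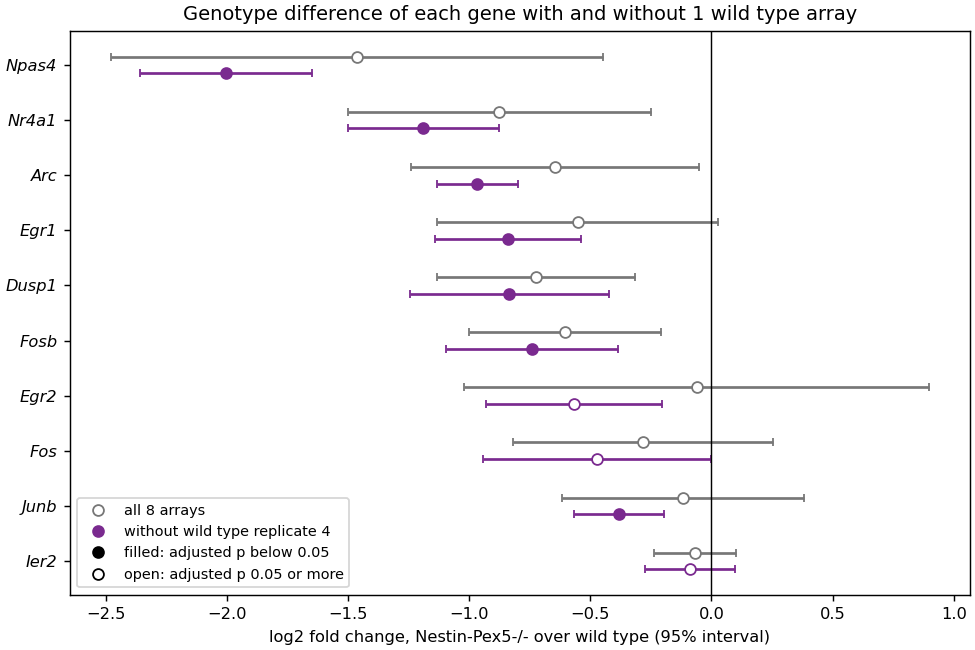
Difference of Nestin-Pex5-/- from wild type on the log2 scale (horizontal axis) with its 95% interval from limma for each gene, in grey over all 8 arrays and in purple without wild type replicate 4. Filled points have an adjusted p below 0.05: none of the grey and 7 of the purple points, Npas4 farthest from 0.

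Which array was left out decided the count. It was 7 without wild type replicate 4, 2 without Nestin-Pex5-/- replicate 7 (Dusp1 and Fosb), and 0 without any other single array. Of all 18194 genes, 331 were lower in the first of these fits, 197 in the second and 46 to 120 in the others. Nestin-Pex5-/- replicate 7 had the highest knockout value for 9 of the 10 genes, all but Arc, and for 28.8% of all genes. The mean over the 10 genes was 8.72, 8.66, 8.56 and 7.57 in wild type replicates 1 to 4 and 8.11, 7.75, 7.76 and 7.74 in the knockouts. The lowest mean of all arrays was thus that of wild type replicate 4. Set against the average of wild type replicates 1 to 3, it was at 0.224-fold for Npas4, 0.246-fold for Egr2 and 0.411-fold for Arc, with Dusp1 at 0.739-fold. It was below all knockouts for Fos, Junb, Egr1, Egr2 and Arc, and within their range for the other 5.

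**Figure D3:**
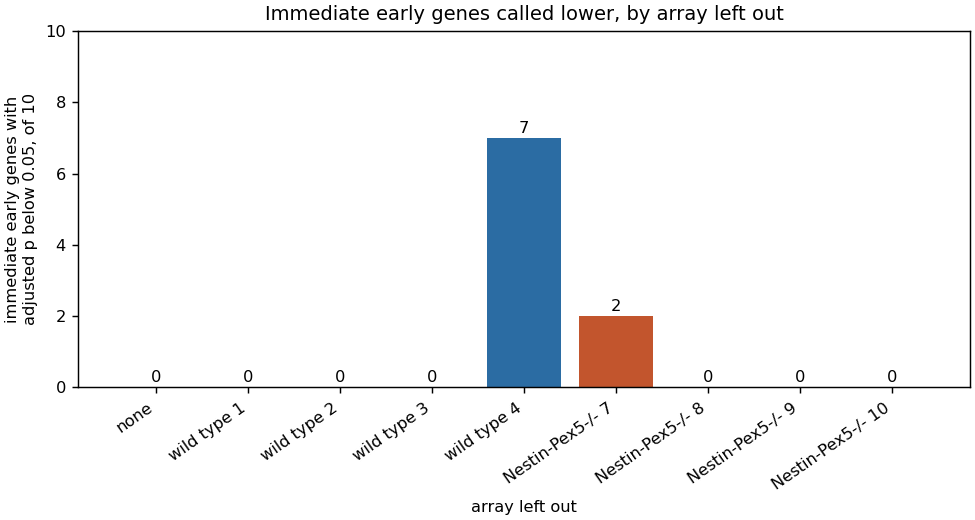
Number of the 10 immediate early genes with an adjusted p below 0.05 in limma (vertical axis) when none or 1 array was left out (horizontal axis); all called genes were lower in Nestin-Pex5-/- mice. The bars stand at 7 without wild type 4, at 2 without Nestin-Pex5-/- 7 and at 0 elsewhere. Of all genes, 331, 197 and 46 to 144 were lower in the same fits.

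How far the 10 genes varied together depended on wild type replicate 4. Ranked by SD within the genotypes among all genes, 9 of them lay between percentile 96.1 (Fosb) and 99.8 (Npas4), and Ier2 at percentile 43.4. Without that array Arc was at percentile 48.0, Junb at 59.2 and Ier2 at 59.3, and the others between 92.8 and 98.2. After the genotype means were subtracted, the median Pearson r of the 45 pairs was 0.76 over 8 arrays, with a range from 0.21 to 0.97. Without replicate 4 it was 0.39, from -0.65 to 0.95. Ier2 had an r of 0.21 to 0.47 with all others but Fos (0.79) over 8 arrays, and Arc one of -0.65 to 0.02 with the other 9 over 7 arrays. These arrays were normalized together, and the correlations are a description. Outside the 10, the genes whose values most resembled their mean over 8 arrays were B230219D22Rik and Traip (r = 0.98 each), then Nudcd1, Zc3h14 and Gm10419 (r = 0.97 each). B230219D22Rik moved only between 11.04 and 11.07, and Traip was 0.622-fold in Nestin-Pex5-/- mice without replicate 4 (adjusted p = 0.0075). With the genotype means subtracted the order was led by Zfp287, Heg1, Ubn2, Ralgapa2 and Hook1, each at r = 0.99.

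Other genes also set this array apart. It held 155 genes more than 2-fold away from the rest of its group, 6 of them immediate early genes, against 18 to 63 genes and no immediate early gene in the other arrays. The mean of 10 choroid plexus and ependyma markers was 7.89 there, 8.81 to 9.15 in wild type replicates 1 to 3 and 8.32 to 8.69 in the knockouts. Ttr, the transthyretin of the choroid plexus, was at 10.51 there and between 14.02 and 14.59 in the rest. Replicate 4 was over 2-fold below replicates 1 to 3 in 5 of the 10, namely Ttr, Kl, Folr1, Kcnj13 and Clic6. Otx2 was at -0.20 from them, and Foxj1, Ccdc153, Rarres2 and Tmem212 were between -0.05 and 0.12. Of the 10, 1 was called lower with all arrays and 3 without replicate 4, against 0.791% and 1.82% of all genes.

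Striatal markers were also low in replicate 4 and in the knockouts. Of 18 listed 15 were measured, and their mean was 9.14, 9.31, 10.28 and 8.57 in wild type and 8.55, 8.45, 8.84 and 8.42 in Nestin-Pex5-/- mice. Replicate 4 was at the level of the knockouts in this list, and 13 of its 15 genes were lowest in that wild type array, against 19.4% of all genes. Without it 4 of the 15 were called lower (Drd1, Gpr6, Rarb and Foxp1), against 1.82% of all genes, and with it none. The mean of the immediate early genes was likewise lower in replicate 4 (7.57) and in the knockouts (7.74 to 8.11) than in replicates 1 to 3. Wild type replicate 3 had the highest striatal mean, and its mean of the immediate early genes was 8.56, against 8.72 and 8.66 in replicates 1 and 2. The 12 myelin markers went the other way, with a mean of 11.59 in replicate 4, 10.86 to 11.10 in wild type replicates 1 to 3 and 11.30 to 11.78 in the knockouts. Without replicate 4, 6 of the 12 were called higher, against 5.94% of all genes, and with it none. Replicate 4 was further 0.45 above replicates 1 to 3 in the mean of 12 thalamus markers, 0.52 above them in that of 9 meningeal markers and at -0.48 from them in that of 15 markers of cortex and hippocampus. In a piece of tissue, fewer cells of a type and less RNA per cell cannot be told apart, and the part of these tissue differences in the low immediate early genes was not tested.

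General neuronal markers went both ways in replicate 4. The mean of 18 such genes was 12.10 to 12.13 in the 4 wild type and 11.95 to 12.04 in the 4 Nestin-Pex5-/- arrays. In 6 of the 18 replicate 4 was the lowest wild type array, against 19.4% of all genes. Among the 6 was Map2, at 12.39 there, 12.59 to 12.62 in replicates 1 to 3 and 12.39 to 12.46 in the knockouts. Slc17a6, the vesicular glutamate transporter of the hypothalamus, was at 12.70 there and between 12.39 and 12.57 in replicates 1 to 3. With all arrays 17 of the 18 estimates were below 0. Of the 18, Slc32a1, the vesicular GABA transporter, was lower in Nestin-Pex5-/- mice with all arrays (0.694-fold, adjusted p = 0.0164), and without replicate 4 also Gad1 and Gad2, which make GABA. Of all genes 0.791% were lower with all arrays and 1.82% without replicate 4. Among hypothalamic peptides Pmch was between 12.18 and 12.83 and Hcrt between 10.05 and 11.08 over the arrays, and Ghrh, a dim probe set, between 6.11 and 6.67. The mean of 20 hypothalamus markers was 8.31 to 8.65 in wild type and 8.17 to 8.64 in Nestin-Pex5-/- mice. With all arrays 19 of these 20 estimates were below 0. Nkx2-1, a factor that patterns the hypothalamus and a dim probe set here, was the one gene called (0.804-fold, adjusted p = 0.037). Of the cell type lists run, that of microglia had the largest median difference between the genotypes. In it 14 of 15 markers were higher, against 3.98% of all genes. The list mean was 8.30 to 8.53 in wild type and 10.37 to 10.68 in Nestin-Pex5-/- mice. Replicate 4, at 8.53, was on the wild type side in this list.

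**Figure D4:**
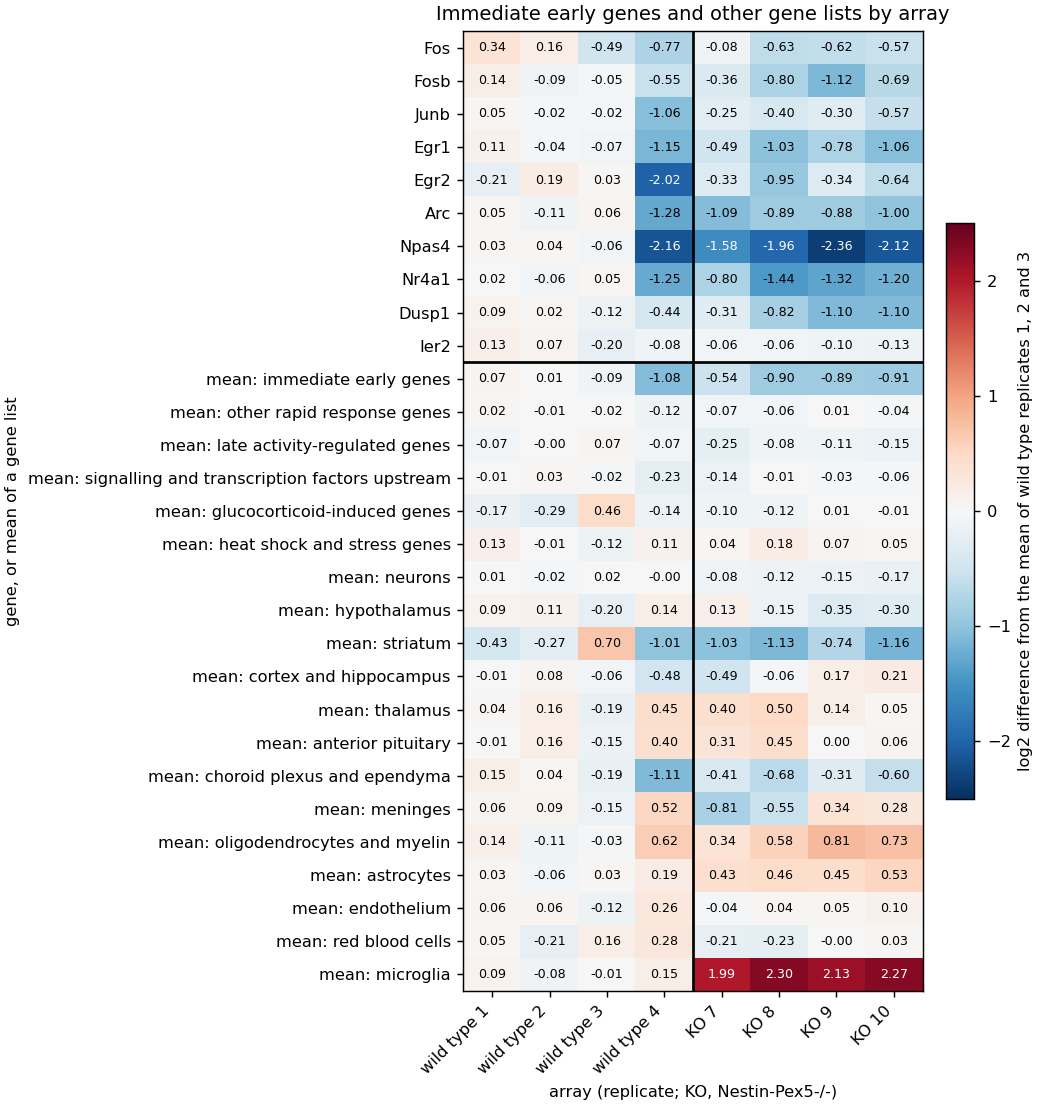
Log2 difference of each array (columns; KO, Nestin-Pex5-/-) from the mean of wild type replicates 1, 2 and 3, for the 10 immediate early genes above the black line and for the means of gene lists below it. Blue is lower and red higher, with the value in each cell. Replicate 4 of wild type is at -1.08 for the mean of the immediate early genes, -1.01 for striatum and 0.62 for myelin, and at 0.15 for microglia.

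Other genes of the rapid response were called in both directions. Of 40 listed 38 were measured. Over all arrays 3 were higher and 2 lower, where 3.98% of all genes were higher and 0.791% lower. The median log2 fold change was -0.065. The higher genes were Atf3, a stress-induced factor (2.26-fold, adjusted p = 4.1e-04), Zfp36, which speeds decay of cytokine mRNAs (1.65-fold, adjusted p = 0.0027), and Gadd45b (1.39-fold, adjusted p = 0.0080). Atf3, a dim probe set, was between 5.63 and 6.04 in wild type and between 6.79 and 7.30 in Nestin-Pex5-/- mice, without overlap. The lower genes were Klf2 (0.725-fold, adjusted p = 0.038) and the CREB-pathway kinase Sik1 (0.752-fold, adjusted p = 0.020), the latter named after its values were seen. Without replicate 4 Egr4 (0.628-fold, adjusted p = 0.0023) and Ccn1 (0.687-fold, adjusted p = 0.030) were lower as well, and Ier3 was higher (1.27-fold, adjusted p = 0.021), which gave 4 in each direction. Of all genes 5.94% were higher and 1.82% lower in that fit. Egr4 was at 8.41, 8.24, 8.24 and 7.66 in wild type and at 7.73, 7.40, 7.70 and 7.67 in Nestin-Pex5-/- mice, so that replicate 4 lay inside the range of the knockouts. Egr3 was at 9.03, 9.16, 9.82 and 7.01 in wild type and at 7.31, 8.38, 8.94 and 8.74 in Nestin-Pex5-/- mice. Its adjusted p was 0.758 over all arrays and 0.162 without replicate 4. Replicate 4 was the lowest wild type array for 14 of the 38 genes, against 19.4% of all genes. Without it the knockouts were below all wild type values for 10 of the 38, against 8.67% of all genes. Jun, at 0.999-fold, and Nr4a2, at 0.972-fold, had adjusted p-values of 0.996 and 0.868.

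None of 26 genes induced later by activity was called with all arrays, where 3.98% of all genes were higher and 0.791% lower. Without replicate 4 Penk (0.382-fold, adjusted p = 0.042) and Pdyn (0.690-fold, adjusted p = 0.014) were lower, against 1.82% of all genes. Both are opioid precursors that the striatum also expresses. Bdnf was at 1.05-fold with an adjusted p of 0.814. Of 33 genes for the receptors, kinases and factors upstream, Elk3, a partner of SRF, was higher (1.89-fold, adjusted p = 0.0016). Without replicate 4 the SRF coactivator Mrtfb (0.751-fold, adjusted p = 0.0038) and the kinases Rps6ka5 (0.821-fold, adjusted p = 0.021) and Braf (0.844-fold, adjusted p = 0.024) were lower. Of all genes 3.98% were higher with all arrays and 1.82% lower without replicate 4. Creb1 and Srf themselves were at 1.07-fold and 0.99-fold, with adjusted p-values of 0.60 and 0.96.

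Lists of other responses to handling or stress gave 1 higher gene each, where 3.98% of all genes were higher. Among 17 genes induced by glucocorticoids it was Lcn2 (4.66-fold, adjusted p = 0.0071), a product of reactive astrocytes, and among 16 heat shock and stress genes Hmox1 (2.37-fold, adjusted p = 0.0011). The mean of the glucocorticoid list was 8.96, 8.83, 9.58 and 8.98 in wild type and 9.01 to 9.13 in Nestin-Pex5-/- mice, and that of the stress list 10.18 to 10.48 over all arrays. Replicate 4 lay within the range of replicates 1 to 3 in both lists. The time of day and the handling before sampling were not given in the sources used here, and their part was not tested.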

How the data were processed

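Total RNA was extracted with Trizol, amplified to biotin-labelled cRNA and hybridised to whole-genome Affymetrix mouse arrays. The deposited values are on the log2 scale and come from RMA run by the authors, which corrects background, sets all arrays to a common distribution and summarises each probe set; its version and the probe set definition are not given in the sources used here. RMA leaves no detection call and no zero, so background in dim probe sets is unknown and fold changes of such genes are compressed. The number of arrays limits the precision.

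Of 45101 probe sets, 34958 are annotated to 1 gene, and the highest mean over 8 arrays chose 1 for each of 18194 genes. The genotype difference was tested by limma 3.58.1 (R 4.3.3, two-sided, eBayes defaults, no covariate), with Benjamini-Hochberg adjustment over all genes and a threshold of 0.05. Single genes were also compared by an exact permutation test (scipy 1.17.1). The fit was tested on simulated data. Promoter letters were searched in RefSeq sequences of GRCm38.p6, and figures were drawn with matplotlib 3.10.9.

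The 10 genes and all other lists were chosen with earlier results of these data known. Named were all 10 genes with their probe sets, the 5 genes most like their mean by each measure, up to 4 called genes of a list or else up to 2 of the highest level, and the targeted gene; the remaining ones were named after their values were seen. Alternatives left out each array, dim, or _s_at and _x_at probe sets, averaged probe sets, scaled to Actb or to reference genes, normalized again, used trend and robust settings, or weighted arrays. Of 10 reference genes 7 were measured. The targeted gene Pex5 differed by 0.011 on the log2 scale (adjusted p = 0.946), but whether its probes lie in the deleted part is not known, so it checks nothing. The 3′ minus 5′ signal of the Actb control was 0.57 to 0.66 and that of the Gapdh control -0.39 to -0.30 over the arrays. Mice are biological replicates according to the series' design; litter, sex and sampling time were not analysed here.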

Additional observations from a re-analysis of the deposited data

Results flagged for a closer look

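In 5 genes the value of wild type replicate 4 lay far below the other 3 wild type arrays, by a Dixon test on each group of 4: Junb at 6.75, Egr1 at 10.38, Arc at 7.39, Npas4 at 5.61 and Nr4a1 at 8.78. The gap to the next array took between 0.859 and 0.955 of the range of the group, above Dixon's 95% critical value for 4 samples. In Fos, Nestin-Pex5-/- replicate 7 lay far above the other knockouts, at 11.04, with a gap of 0.884 of the range. These are 6 of 20 groups tested, and chance alone gives about 1 in 20. The groups share arrays, so the 5 values of replicate 4 are not 5 separate observations.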

How the results depend on the processing

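Every gene tested stayed below 0 in limma's estimate when dim, or _s_at and _x_at, probe sets were left out (7 genes were above the level limit), and when probe sets were averaged or the arrays normalized again, scaled to Actb or weighted. Scaled to reference genes, Egr2 was at 0.011 and Ier2 at 0.0041. Leaving out 1 array moved Egr2 between -0.57 and 0.17. The number of immediate early genes called lower was 0 over all arrays, 4 after scaling to Actb (Dusp1, Fosb, Npas4 and Nr4a1) and 6 with array weights, which gave wild type replicate 4 the lowest weight, 0.274, and called Arc, Dusp1, Egr1, Fosb, Npas4 and Nr4a1. Leaving out 1 array gave 0 to 7, and leaving out a further array besides wild type replicate 4 gave 4 to 7. On these 7 arrays the other settings, chosen after seeing the data, gave 5 of 7 genes above the level limit, 6 with trend and robust settings, 8 with Actb scaling or array weights and 7 otherwise. Of all genes, 724 were higher and 144 lower; scaling to Actb gave 659 lower, scaling to reference genes 1097 higher and 65 lower, array weights 1351 higher and 699 lower, and leaving out 1 array 46 to 331 lower. Actb scaling, which gave 501 higher, moved the median of all genes by -0.13 on the log2 scale, its 4 calls of immediate early genes included. The causes were not tested. No paired analysis was possible because the genotypes share no replicate numbers. With 4 arrays a group, the intervals of Fos, Junb, Egr1, Egr2 and Ier2 over all arrays leave a change in either direction possible.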
